A study of Danio rerio with 1109 samples.

Results

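The secreted ligands of the BMP and TGF-beta family, and the proteins that hold them outside the cell, were described in single cells of the zebrafish trunk. Members were taken as all genes whose symbol starts with bmp, gdf or tgfb followed by a digit, or belongs to the inhibin beta, gremlin, noggin, chordin, follistatin or follistatin-like names, and 49 of the 32057 genes in the count table met this rule. They comprised 23 BMP or GDF ligands, 5 TGF-beta ligands, 4 activin subunits, 9 antagonists, 5 follistatin-like genes, 2 proteases of the bmp1 type and bmp2k, an intracellular kinase that the pattern also selects. Where paralogs carried the same capital symbol in the gene name table, they are called copy 1 and copy 2 in the order of their identifiers, which applies to 17 members.

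The study sorted cells from partially dissociated trunks of embryos at 48 hours post fertilization (hpf) and sequenced each cell on its own by Smart-seq2, a full-length protocol without molecular identifiers. The cells came from 2 transgenic lines on 3 plates, each with 32.9 to 34% of the cells. Vegfc plates 1 and 2 came from vegfc:Gal4FF;UAS:GFP;kdrl:mCherry embryos, in which regulatory sequence of vegfc drives GFP through Gal4FF and kdrl drives mCherry in endothelium. The pdgfra plate came from pdgfra:mCit embryos, in which a pdgfra reporter labels mesenchyme with a yellow fluorescent protein. Cells were chosen by reporter signal. From the vegfc line the study sorted GFP-positive cells without mCherry and, separately, mCherry-positive cells without GFP. From the pdgfra line it sorted cells positive for the yellow protein. The labels name no sort gate, embryo or pool for a single cell, the pdgfra line has 1 plate, and line and plate therefore cannot be told apart. A plate was treated as 1 sample and cells were not treated as replicates, so no p-value is given.

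BMPs and GDFs are dimeric growth factors that bind type I and type II serine/threonine kinase receptors and act through Smad1, Smad5 and Smad9, whereas TGF-betas and activins act through Smad2 and Smad3. Noggin, chordin, gremlin and follistatin bind ligands outside the cell and keep them from their receptors, so the local balance of ligand and antagonist sets the signal a cell receives. In the vertebrate trunk BMP signals pattern the neural tube, somites, fins and vessels, and TGF-beta signals are known for their effect on matrix production by fibroblasts.

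Cells were assigned to kinds by marker genes, none of which is a member. A marker counted in a cell at 20 counts or more and at 10% or more of that gene's 99th percentile in CPM (counts scaled to the same total of gene counts in every cell or pool of cells), and this second bar was added after the data had been seen. There were 612 fibroblast-gated cells, 55.2% of all cells, and their share by plate was 44.4% on vegfc plate 1, 36.6% on vegfc plate 2 and 85.2% on the pdgfra plate. The horizontal myoseptum (HM) is the connective tissue sheet between dorsal and ventral muscle, and 55, 51 and 40 cells of the 3 plates met its gate, which asked for en1a or en1b and 2 of 5 other genes. The HM genes came from the study's own tables of these same cells. The other fibroblast-gated cells were 92 fin mesenchyme cells, 59 en1-positive cells outside the HM gate, 52 cycling cells, 38 tnmd-positive cells, 14 cells of a visceral gate that are not described, and plain fibroblasts with none of these marks (71, 54 and 86 cells on the 3 plates). A cell that met another kind went to that kind even where it also met the fibroblast gate, as 13 mesothelium, 9 epidermal, 5 myogenic, 5 axial, 2 neural, 1 endothelial and 1 myeloid cells did. The other kinds were 89 myeloid, 76 neural, 50 mesothelium, 47 myogenic, 33 epidermal, 25 tubular epithelium and 22 endothelial cells, with 8 axial and 6 pigment cells too few to compare, and 12.7% of all cells were left ungated. The tnmd gate rests on a single marker and so names a gene and not a cell type. Genes outside the marker lists that led the kinds included HOXB13 in fin mesenchyme, SLC12A3 in tubular epithelium, NCF1 in myeloid cells and TTN in myogenic cells, while the mesothelium gate was led by gcga, a glucagon gene, with TCF21 also among its first 6. The kinds were uneven across plates: 1 mesothelium, 2 neural and 0 endothelial cells lay on the pdgfra plate. Median gene counts per cell were 301980, 315212 and 279923 on vegfc plate 1, vegfc plate 2 and the pdgfra plate, within a range of 50045 to 782140, and by kind they were 236244 in HM-gated and 370888 in myeloid-gated cells.

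A cell was called expressing at 20 counts or more of a gene. Of the 49 members, 3 had no count in any cell (gdf3, BMP10 copy 1 and GREM1 copy 1), 33 reached the threshold in 10 cells or more and 22 in 50 cells or more, and 1025 cells expressed at least 1 member. The filter of 300 counts in all and 3 cells left 37 members among 18529 genes. There were 31 members at 5% or more of the cells of a kind with at least 20 cells, and the 25 of these with the highest shares are described in full, apart from 1 that is not reported here. Intervals on shares are exact 95% Clopper-Pearson intervals and cover counting error only. Exact Poisson intervals on summed CPM treat reads as independent, which amplified reads without molecular identifiers are not. They are therefore too narrow, and they leave out the spread between cells and between plates. CPM is not scaled by transcript length, so levels are compared between kinds and not between genes. Myeloid-gated cells served as a rough measure of background from free RNA or neighbouring wells, and 28 of the 31 members were found in at most 2 of the 89 myeloid-gated cells (2.25%). These low shares were partly set by the gate. At 20 counts alone 53.8% of the myeloid cells also met the fibroblast gate, against 1.12% with the 10% bar. The pdgfra plate held 11 of the 89 cells, so myeloid-gated cells measured its background little. In all cells of that plate outside the fibroblast gate, and1, a marker of fin mesenchyme, had a median of 204.5 counts. The part of such background in the shares on the pdgfra plate was not tested. The members found in more than 2 myeloid-gated cells were bmp2k in 55.1%, tgfb1b in 8.99% and INHBA copy 1 in 7.87% of these cells.

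**Figure D1:**
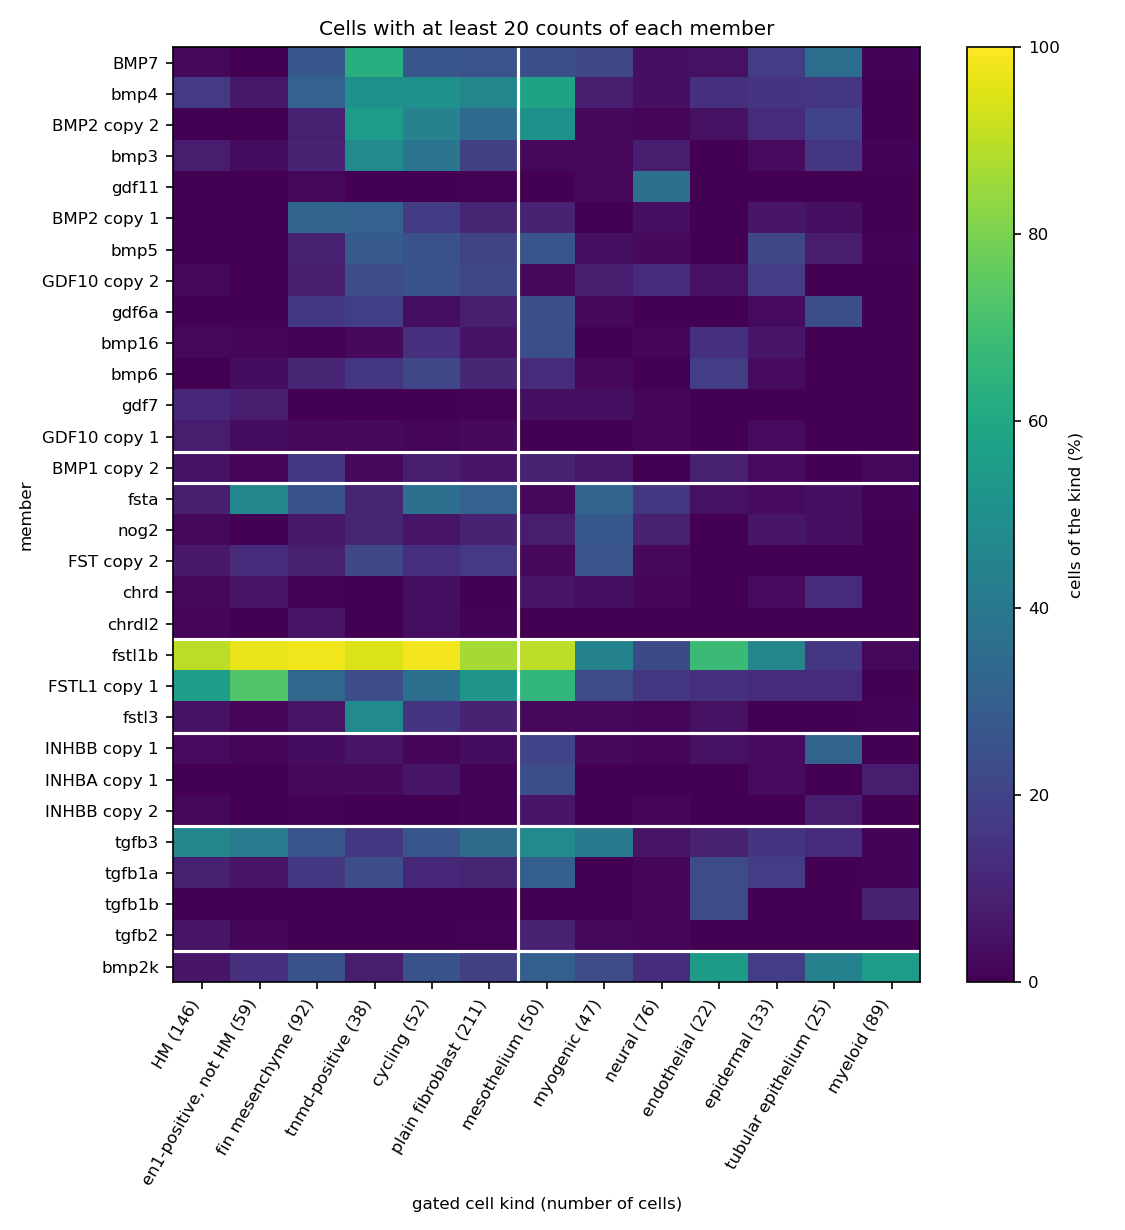
Heat map of the percentage of cells with at least 20 counts (colour) for 30 of the 31 members at 5% or more of a kind (rows, grouped by role) in 13 gated kinds (columns, number of cells in brackets); kinds left of the vertical line are fibroblast-gated. HM-gated cells show 0% for BMP2 copies 1 and 2, bmp5, bmp6 and gdf6a, tnmd-positive cells hold BMP7 at 63.2%, and fstl1b reaches 98.1% in cycling cells.

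A BMP or GDF ligand was expressed in 58.7% of fibroblast-gated cells and in 92% of mesothelium, 64% of tubular epithelium, 57.6% of epidermal, 53.9% of neural and 3.37% of myeloid cells. Between fibroblast-gated and all other gated cells a gene was called when summed CPM, with 1 CPM added, differed by at least 2-fold and in the same direction in every plate with 10 or more cells of both classes. By this rule 17 of 37 members were called higher in fibroblast-gated cells, where 7.59% of all 18529 genes were, and 3 were called lower, where 17.8% of all genes were. The median log2 ratio was 1.01 over the members and -0.34 over all genes. The 17 comprised 9 of 14 BMP or GDF ligands, 4 of 8 antagonists, 3 of 4 follistatin-like genes and tgfb3. The members called lower were gdf11, INHBA copy 1 and tgfb1b, of which INHBA copy 1 had a log2 ratio of -1.15 that was -0.76 with TMM size factors, which scale libraries by the bulk of their genes, -0.89 with 5 CPM added and -0.13 when 20 counts alone made a marker.

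Bmp4, a ligand with broad roles in ventral and mesodermal patterning, was expressed in 34.2% of 612 fibroblast-gated cells (30.4 to 38.1). Its level in fibroblast-gated cells was 317.8, 328.4 and 144.8 CPM on vegfc plate 1, vegfc plate 2 and the pdgfra plate, and it was called higher than in other gated cells by 1.84 on the log2 scale. BMP7 (ENSDARG00000063230), which forms heterodimers with BMP2 and BMP4 proteins, was called higher by 1.47, with 2.0 on vegfc plate 2 and only 0.21 on the pdgfra plate. BMP2 copy 2 (ENSDARG00000041430) was expressed in 20.4% of these cells (17.3 to 23.8) at 149.9, 213.2 and 87.5 CPM on the 3 plates in that order. Bmp3, an atypical member that is known to oppose other BMPs in mammalian bone, reached 80.4, 106.1 and 76.2 CPM and was called higher by 2.31. Calls for 2 of these ligands depended on a choice: BMP7 and BMP2 copy 2 were each at 0.89 when 20 counts alone made a marker, and BMP2 copy 2 was at 0.81 without vegfc plate 2. The calls of gdf7 and FSTL1 copy 1 were also lost without vegfc plate 1, at 0.95 and 0.98, and with cells of several kinds left out, at 0.81 and 0.88, and GDF10 copy 2 was at 0.64 when 20 counts alone made a marker. The 3 plates gave levels of the same order for bmp3, while bmp4 and BMP2 copy 2 were lower on the pdgfra plate than on either vegfc plate.

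HM-gated fibroblasts expressed few of the BMP ligands that other fibroblasts carried. Against all other fibroblast-gated cells, 14 of 37 members were called lower in HM-gated cells, with a background of 15.3% of all genes, and 2 were called higher, with a background of 4.09%. The median log2 ratio was -0.66 over the members and -0.16 over all genes, and 5 members were called higher without vegfc plate 1. Among 14 BMP or GDF ligands, 9 were called lower and 1 higher, and among 8 antagonists 4 were called lower and none higher.

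BMP2 copy 2 was expressed in none of the HM-gated cells, which allows a share of up to 2.05%. Its level was 3.14 CPM (Poisson interval 2.58 to 3.78) in HM-gated cells, and its log2 ratio to other fibroblast-gated cells was -5.33, with -5.11, -7.22 and -4.59 on vegfc plate 1, vegfc plate 2 and the pdgfra plate. BMP2 copy 1 (ENSDARG00000013409), bmp5, bmp6 and gdf6a were also expressed in 0 HM-gated cells. Their log2 ratios were -4.52, -4.77, -4.86 and -3.77 in that order. These 4 ligands include gdf6a, which patterns the dorsal retina and trunk in zebrafish, and their HM levels of 1.04 to 2.30 CPM were of the size seen for them in myeloid-gated cells (0.214 to 8.77 CPM).

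Bmp4 was lower in HM-gated cells but not absent. It was expressed in 5 of 55, 15 of 51 and 5 of 40 HM-gated cells on vegfc plate 1, vegfc plate 2 and the pdgfra plate, at 61.1, 168.6 and 47.3 CPM. The level over all plates was 95 CPM (91.8 to 98.3) against 265.4 CPM in other fibroblast-gated cells, a log2 ratio of -1.47 that ranged from -2.78 to -1.24 by plate and was -0.93, short of 2-fold, without vegfc plate 1. BMP7 was expressed in 0 of 55, 1 of 51 and 2 of 40 HM-gated cells and had a log2 ratio of -3.34. Bmp3, at 11.6, 44.8 and 14 CPM in HM-gated cells of the 3 plates, had a log2 ratio of -2.01. GDF10 copy 2 (ENSDARG00000095378), a gene of the BMP3 subfamily, had a log2 ratio of -4.14. Its paralog GDF10 copy 1 (ENSDARG00000073891) was not called, with 36.5 CPM in HM-gated and 9.40 CPM in other fibroblast-gated cells, because the ratio was 0.00 on vegfc plate 1 and 4.77 on the pdgfra plate.

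The members called higher in HM-gated cells were gdf7 and tgfb2. Gdf7, known in mice for the roof plate and for tendon, was expressed in 9 of 55, 2 of 51 and 6 of 40 HM-gated cells, at 69.5, 13.6 and 40.8 CPM. Its level was 41.9 CPM (39.8 to 44.1) in HM-gated and 4.96 CPM in other fibroblast-gated cells, and the log2 ratio of 2.85 was 5.84, 0.63 and 2.67 by plate, so that the vegfc plates lay farthest apart. Without vegfc plate 1 the log2 ratio of gdf7 was 1.87. Tgfb2, a TGF-beta ligand, was expressed in 2 of 55, 4 of 51 and 3 of 40 HM-gated cells at 14.3, 21.1 and 17.8 CPM, and had a log2 ratio of 2.95. Both are thus minority signals within the gate, in 17 and 9 HM-gated cells.

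**Figure D2:**
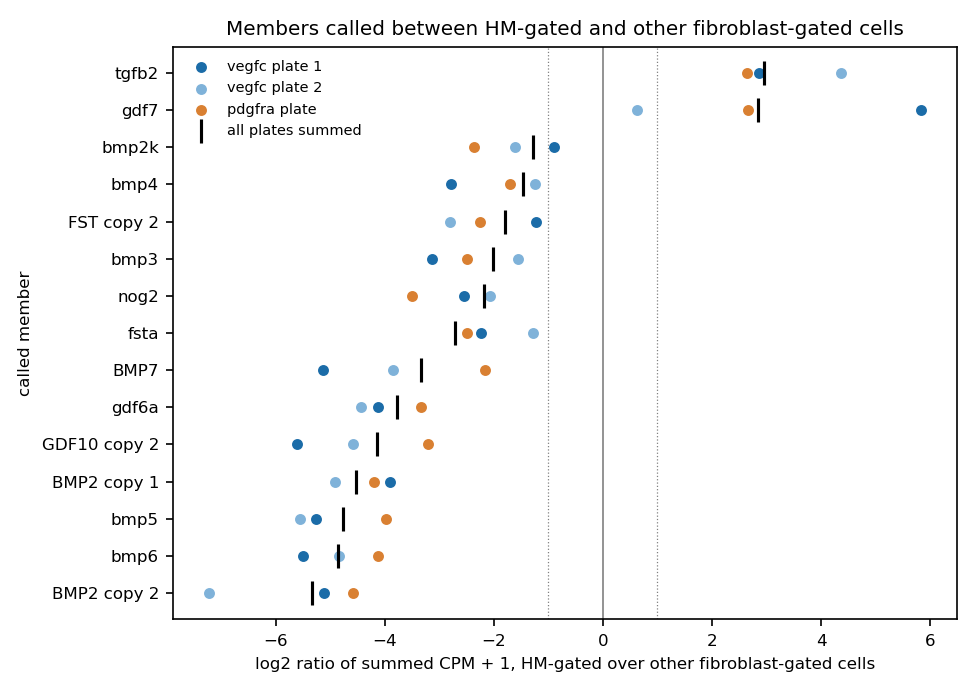
Log2 ratio of summed CPM plus 1 in HM-gated over other fibroblast-gated cells for 15 of the 16 members called in this comparison; points are the 3 plates, black bars all plates summed, and dotted lines mark 2-fold. Gdf7 at 2.85 and tgfb2 at 2.95 lie to the right of 0 and the 13 others to the left, down to BMP2 copy 2 at -5.33, with each plate on the same side as the sum.

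There were 4 antagonists also called lower in HM-gated cells. Fsta, a follistatin that binds activins and some BMPs, was expressed in 4 of 55, 2 of 51 and 6 of 40 cells at 58.3, 52.1 and 124.4 CPM, against 493.6 CPM in other fibroblast-gated cells of all plates (log2 ratio -2.71). Its log2 ratio was -1.89 without the pdgfra plate. Nog2, a noggin, and FST copy 2 (ENSDARG00000057992) had log2 ratios of -2.18 and -1.80. The remaining call was bmp2k at -1.29. HM-gated cells also had the fewest gene counts per fibroblast kind, a median of 236244 against 278310 in plain fibroblasts, and its part in the result was not tested. The shares in cells thinned to 50000 gene counts, where 3 counts were called expressing, were 41.1% for any BMP or GDF ligand in HM-gated and 69.2% in plain fibroblasts.

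Tnmd-positive cells, where tnmd encodes a membrane protein of tendon, carried the most ligands per cell among the kinds compared. Of the 38 cells, 35 expressed a BMP or GDF ligand (92.1%, 78.6 to 98.3) and 27 expressed 3 or more (71.1%). Vegfc plates 1 and 2 held 7 and 2 such cells, which enter the summed ratio to other fibroblast-gated cells, but the check of its sign rests on the pdgfra plate alone. By this comparison 11 of 37 members were called higher, with a background of 6.05%, and 11 lower, with a background of 22.7%. BMP7 was expressed in 4 of 7, 1 of 2 and 19 of 29 tnmd-positive cells, at 333.3, 461.6 and 456.5 CPM (log2 ratio 1.94). BMP2 copy 2, bmp3, bmp5, bmp6, BMP2 copy 1 and gdf6a were called higher by 1.25 to 1.84. With cells of several kinds left out BMP2 copy 2 and bmp3 were at 0.87 and 0.57, and BMP2 copy 1 was at 0.75 with the marker bar at 20%. Fstl3, a secreted follistatin-like protein that binds activin, was expressed in 18 of the 38 cells (47.4%, 31 to 64.2) and gave the highest ratio of this comparison at 2.77. Among antagonists FST copy 2 was called higher by 1.5, while fsta, chrd, chrdl2 and GREM1 copy 2 were among those called lower. Fsta was expressed in 4 of the 38 cells, and chrd, chrdl2 and GREM1 copy 2 in 0. A count of 0 in 38 allows a share of up to 7.89%. Over all fibroblast-gated cells the shares of chrd, chrdl2 and GREM1 copy 2 were only 1.8%, 1.8% and 2.45%, so their calls show no lower share in tnmd-positive cells.

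Fin mesenchyme-gated cells had 4 members called higher, with a background of 3.70%, and 8 called lower, with a background of 10.7%. These counts were 2 and 3 when 20 counts alone made a marker. BMP2 copy 1 was expressed in 3 of 11, 5 of 11 and 22 of 70 cells of vegfc plate 1, vegfc plate 2 and the pdgfra plate, at 101.7, 103.1 and 100.5 CPM, and was called higher than in other fibroblast-gated cells by 1.70. These 3 levels lay within 3 CPM of one another. Gdf6a, at 135.5, 47.8 and 39.9 CPM, was called higher by 1.67, which was 0.82 when 20 counts alone made a marker, and BMP1 copy 2 (ENSDARG00000028071), a protease whose family cleaves chordin and procollagen, by 1.74. Bmp2k, at 87.6, 124.8 and 71.1 CPM, was also called higher, by 1.19. Its ratio was 0.50 when 20 counts alone made a marker and 0.92 by the mean of cell CPM. The 2 vegfc plates had 11 fin mesenchyme-gated cells each, so that the pdgfra plate carried 70 of the 92.

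In the 59 en1-positive cells outside the HM gate, 10 of 14 BMP or GDF ligands and 4 of 8 antagonists were called lower than in other fibroblast-gated cells. The ratio sums all plates, but its sign was checked on the pdgfra plate alone, which held 51 of the cells. In all 18 of 37 members were called lower, with a background of 20.1%, and gdf7 alone was called higher, with a background of 6.77%, against 0 members without vegfc plate 2 and 2 without vegfc plate 1. The log2 ratio of gdf7 was 0.50 without vegfc plate 2, which held 5 of these cells. BMP2 copy 2, GDF10 copy 2 and bmp5 had log2 ratios of -5.48, -5.42 and -5.12. A BMP or GDF ligand was expressed in 15 of the 59 cells (25.4%, 15 to 38.4) and an antagonist in 39 (66.1%), against 36.3% and 28.8% of the HM-gated cells. On the pdgfra plate an antagonist was expressed in 61.4% of all fibroblast-gated, 77.9% of plain and 45% of HM-gated cells. Fsta was expressed in 27 of 51 en1-positive cells of the pdgfra plate and in 0 of the 8 on the vegfc plates.

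Cycling fibroblasts had 1 member called higher, with a background of 5.65%, and 10 called lower, with a background of 16.6%. Leaving out vegfc plate 1, vegfc plate 2 or the pdgfra plate gave 3, 5 and 4 members higher, and 16 lower without the pdgfra plate. The member called higher was bmp3, at 206.8 CPM over 52 cells (log2 ratio 1.57), while tgfb3 was called lower by -1.35. Bmp3 was at 0.91 when 20 counts alone made a marker, and tgfb3 at -0.95 and -0.96 with the bar at 5% and 20%. Plain fibroblasts had 3 called higher, with a background of 3.05%, and 4 called lower, with a background of 6.23%, against 7 called higher without the pdgfra plate. The mean of each cell's own CPM gave 5 higher and 3 lower. BMP2 copy 2, GDF10 copy 2 and fsta were called higher there, by 1.46, 1.93 and 1.34, and gdf7, tgfb2, chrd and GDF10 copy 1 were called lower. With cells of several kinds left out BMP2 copy 2, fsta, tgfb2 and GDF10 copy 1 were at 0.98, 0.87, -0.28 and -0.37. GDF10 copy 1 was also at -0.77 without vegfc plate 2, -0.79 with 5 CPM added, -0.84 by the mean of cell CPM and -0.87 with 1 marker more. Fsta in plain fibroblasts was 418.9, 113.4 and 1212 CPM on the 3 plates, and its ratio was 0.20 on vegfc plate 2 and -0.25 over all plates when 20 counts alone made a marker, and 0.93 with the bar at 5%.

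Mesothelium-gated cells, chosen by jam2b, podxl, hand2 and related genes, combined many ligands with few antagonists. Of 50 cells, 46 expressed a BMP or GDF ligand (92%, 80.8 to 97.8) and 9 an antagonist (18%). The antagonist share was also low in neural (23.7%), tubular epithelium (20%), endothelial (9.09%), epidermal (9.09%) and myeloid cells (3.37%), but was 59.6% in myogenic cells. In fibroblast-gated cells it was 38% and 33.3% on vegfc plates 1 and 2 and 61.4% on the pdgfra plate, which held 1 mesothelium-gated cell. Against all other gated cells 9 of 37 members were called higher, with a background of 6.37%, and 11 lower, with a background of 29.7%, with the sign checked on the vegfc plates. Among BMP or GDF ligands 4 of 14 were called higher and 4 lower. Of 4 activin subunits 3 were called higher. INHBA copy 1 (ENSDARG00000012671) was expressed in 5 of 21 and 7 of 28 cells of vegfc plates 1 and 2 at 120.1 and 65 CPM (log2 ratio 3.24). INHBB copy 1 (ENSDARG00000040777), at 90.1 and 50.8 CPM, was called higher by 2.51 and INHBB copy 2 by 1.74. Activins are dimers of these beta subunits. Bmp5 was also among the 9, but its log2 ratio was 0.83 without vegfc plate 2 and also with 20 counts alone, 0.95 with cells of several kinds left out and 0.32 with 1 marker more.

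Among ligands of mesothelium-gated cells, bmp16 was at 51.1 and 150.8 CPM on vegfc plates 1 and 2 and was called higher by 2.64. Bmp16 is a BMP2/4-related gene that mammals lack. BMP2 copy 2 was at 283.2 and 221.1 CPM and was called higher by 1.46. Bmp4 was expressed in 10 of 21 and 18 of 28 cells, at 221.6 and 356.4 CPM, and was not called against all other gated cells. Fsta had a log2 ratio of -4.78. Median gene counts were 374638 in mesothelium-gated cells, above the 269074 of fibroblast-gated cells.

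Antagonists were expressed in different kinds from one gene to the next. Fsta was found in 19 of 32 cycling, 27 of 51 en1-positive and 49 of 86 plain fibroblasts of the pdgfra plate, whereas the 20 cycling cells on the vegfc plates had none. Outside fibroblasts it was expressed in 15 of 47 myogenic cells (31.9%, 19.1 to 47.1), at 125.8, 100.5 and 729.2 CPM on vegfc plate 1, vegfc plate 2 and the pdgfra plate. Fsta was called higher in fibroblast-gated than in other gated cells, by 2.99. Ungated cells entered no comparison, and 24.8% of them expressed fsta, at 393.6 CPM. In fibroblast-gated cells the share was also 24.8%, at 408.8 CPM.

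Nog2 and FST copy 2 were instead the 2 members called higher in myogenic-gated cells, with a background of 10.8%, where 22 were called lower, with a background of 38%. Nog2 was expressed in 5 of 15, 5 of 23 and 3 of 9 myogenic cells at 118.4, 54.6 and 175.1 CPM, and its log2 ratio was 1.75. It was also expressed in 5 of the 8 axial cells, too few to compare, at 241.8 CPM against 92.2 CPM over all myogenic cells. FST copy 2 was expressed in 12 of the 47 cells (25.5%, 13.9 to 40.3) and its log2 ratio was 1.57. Chrd, which encodes chordin, was a rare transcript, in 22 cells, and was called higher in tubular epithelium-gated cells by 1.36 on the strength of 3 of 25 cells. Chrdl2, a chordin-like antagonist, was expressed in 12 cells, 11 of them on the pdgfra plate and 5 in fin mesenchyme.

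TGF-beta ligands had separate distributions. Tgfb3 was expressed in 27 of 55, 15 of 51 and 25 of 40 HM-gated cells at 295.2, 191.1 and 306.4 CPM, and in 24 of 50 mesothelium-gated cells at 145.9 CPM. It was called higher in fibroblast-gated cells by 1.30 and was not called in HM-gated cells, where its log2 ratio to other fibroblasts was 0.78. Tgfb1a was expressed in 15 of 50 mesothelium-gated cells (30.0%, 17.9 to 44.6) and in 9 of 38 tnmd-positive cells, and was called higher in both comparisons, by 1.05 and 1.54, the former being 0.91 without vegfc plate 1 and 0.88 to 0.98 with 20 counts alone, 5 CPM added or the mean of cell CPM. Tgfb1b, its paralog, was found in 15 cells in all, of which 8 were myeloid-gated and 5 endothelial-gated. It was called higher in myeloid-gated cells by 2.60, with 2.18, 2.37 and 2.85 by plate, and was expressed in 0 of 612 fibroblast-gated cells.

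Among the follistatin-like genes, fstl1b was the most widespread member and was expressed in 799 cells. Fstl1 proteins are secreted glycoproteins that bind BMPs and their receptors in mice. Its level was 835.6, 938.8 and 846.0 CPM in fibroblast-gated cells of vegfc plate 1, vegfc plate 2 and the pdgfra plate, a log2 ratio of 2.12 over other gated cells, and 27.7 CPM in myeloid-gated cells. FSTL1 copy 1 (ENSDARG00000015559) was expressed in 49.5% of 612 fibroblast-gated cells at 294.3, 264.7 and 247.2 CPM, and its log2 ratio was 0.81 when 20 counts alone made a marker. The 3 plates lay within 2-fold of one another for both genes. Bmp2k, whose product is a kinase of endocytosis and not a ligand, had its highest share in myeloid-gated cells. It was expressed in 26 of 40, 18 of 38 and 5 of 11 myeloid-gated cells at 186.3, 99.9 and 155.8 CPM. Between fibroblast-gated and other gated cells bmp2k was not called, with a log2 ratio of -0.81.

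In the other kinds, myogenic cells included, the members called lower ranged from 48.6% in epidermal and 54.1% in neural to 81.1% in myeloid cells. Myeloid-gated cells had 30 of 37 called lower, with a background of 37.4%, and 2 higher, with a background of 11.4%, the 2 being bmp2k and tgfb1b, while 17 were called lower when 20 counts alone made a marker. Neural-gated cells had 20 called lower, with a background of 31%, and 2 higher, with a background of 17%, or 1 higher without vegfc plate 1. Gdf11, a relative of myostatin that restrains neurogenesis in mice, was expressed in 28 of 76 neural cells (36.8%, 26.1 to 48.7), at 135.2 and 134.9 CPM on vegfc plates 1 and 2, and its log2 ratio of 6.16 was the highest of any member in the 14 comparisons of kinds. The other was fstl5, which rested on 2 of the 76 cells.

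Endothelial-gated cells, with the sign checked on vegfc plate 2 alone, had 25 called lower, with a background of 40.6%, and 4 higher, with a background of 10.6%. Tgfb1b led these at 3.69, in 5 of 22 cells, followed by bmp2k at 1.60 and bmp16 at 1.55, or 0.78 with cells of several kinds left out. Tubular epithelium-gated cells, with the sign checked on vegfc plate 1 alone, had 26 called lower, with a background of 38.1%, and 4 higher, with a background of 14.9%. INHBB copy 1 was expressed in 8 of these 25 cells (32%, 14.9 to 53.5) and had a log2 ratio of 2.79. Epidermal-gated cells, likewise with the sign of vegfc plate 1 alone, had 18 called lower, with a background of 35.3%, and bmp5 alone higher, with a background of 11.8%. Bmp5 was expressed in 7 of 27 epidermal cells of that plate, at 170.6 CPM.

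The pdgfra plate was compared with each vegfc plate, and a gene was called when it differed by at least 2-fold in the same direction from both. Over all fibroblast-gated cells 3 of 37 members were called higher on the pdgfra plate, with a background of 5.63%, and 4 lower, with a background of 6.03%. The 3 called higher were antagonists, but their share of 8.11% of the members was near the background. Fsta was at 213.7 and 104.6 CPM on vegfc plates 1 and 2 and at 640.6 CPM on the pdgfra plate. In myeloid-gated cells fsta was at 3.37, 1.31 and 28.4 CPM on vegfc plate 1, vegfc plate 2 and the pdgfra plate. The part of free RNA in the fsta contrast was not tested. Chrdl2 was at 0 and 2.73 CPM against 12.5 CPM. Its call rested on 10 expressing fibroblast-gated cells of the pdgfra plate, against 0 and 1 on vegfc plates 1 and 2. Those cells of the pdgfra plate held 1110 of its 1382 counts, so chrdl2 passed the filter only through the plate on which it was called higher. The vegfc plates differed from each other by 1.02 for fsta on the log2 scale, less than either did from the pdgfra plate.

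The members called lower were bmp4, GDF10 copies 1 and 2 and INHBB copy 2. Bmp4 was at 317.8 and 328.4 CPM on the vegfc plates and at 144.8 CPM on the pdgfra plate, with the vegfc plates 0.05 apart on the log2 scale. GDF10 copy 2 was at 140.8 CPM on vegfc plate 1 and higher still on vegfc plate 2, against 50 CPM, GDF10 copy 1 at 35.4 and 14.3 CPM against 5.10 CPM, and INHBB copy 2 at 1.88 and 5.02 CPM against 0.282 CPM. Since the kinds were unevenly spread over plates, the comparison was repeated in plain fibroblasts, where 5 members were called higher on the pdgfra plate, with a background of 9.19%, and 7 lower, with a background of 8.79%. Fsta, at 418.9, 113.4 and 1212 CPM, was again higher, and bmp4 was again lower at 422.4, 379.8 and 184.9 CPM. For fsta the pdgfra plate lay 1.53 above vegfc plate 1 and 3.41 above vegfc plate 2 on the log2 scale. The vegfc plates lay 1.88 apart here, more than vegfc plate 1 did from the pdgfra plate. Gdf7 (0.264 and 0.0633 against 5.61 CPM), INHBA copy 1 (0.949 and 0.507 against 4 CPM) and tgfb2 (0.105 and 0.0633 against 1.69 CPM) were also called higher among plain fibroblasts, at levels of a few CPM. GDF10 copies 1 and 2 and INHBB copy 2 were again called lower, and so were BMP2 copy 2, bmp5 and gdf6a, the last from 36.7 and 35.6 CPM to 4.35 CPM. In HM-gated cells 7 members were called higher, with a background of 9.58%, and 3 lower, with a background of 10%. In fin mesenchyme 1 was called higher, with a background of 14.5%, and 4 lower, with a background of 6.01%. Chrdl2 was called higher in both kinds, on 2 of 40 HM-gated and 5 of 70 fin mesenchyme-gated cells of the pdgfra plate, and fsta in HM-gated cells only. INHBB copy 2 was called lower in both and GDF10 copy 2 in fin mesenchyme only. Bmp4 and GDF10 copy 1 were called in neither. The sort of each line and the plate are parts of the same contrast, so the line, the gate and the plate cannot be told apart.

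**Figure D3:**
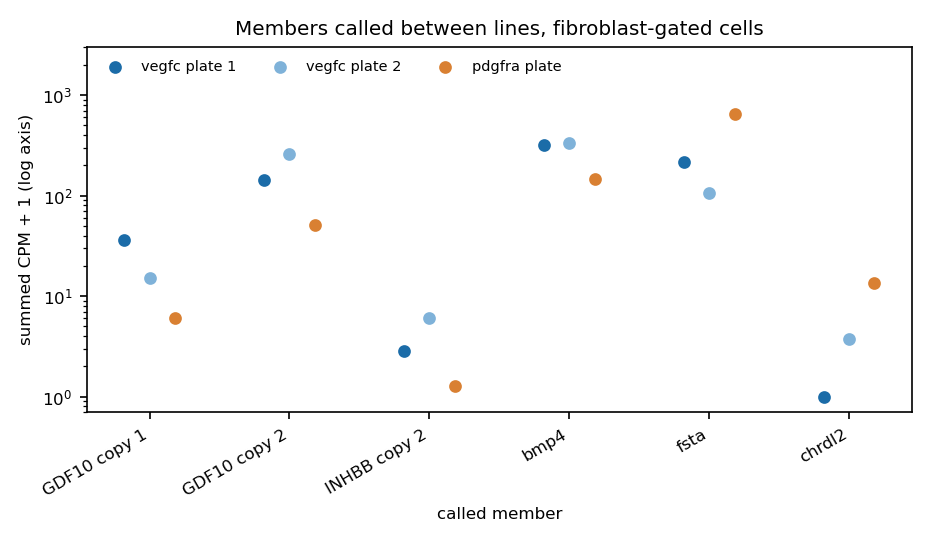
Summed CPM plus 1 (log axis) in fibroblast-gated cells of each plate for 6 of the 7 members called between the lines. Fsta and chrdl2 lie highest on the pdgfra plate (640.6 and 12.5 CPM) and bmp4, GDF10 copies 1 and 2 and INHBB copy 2 lowest there. Chrdl2 rests on 10 expressing cells of the pdgfra plate and passed the filter only through that plate.

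Ligands and antagonists were next compared within cells. Of 612 fibroblast-gated cells, 58.7% expressed a BMP or GDF ligand (54.6 to 62.6) and 48.9% an antagonist (44.8 to 52.9). An antagonist was expressed in 39.8% of the ligand cells (34.7 to 45.1) and in 61.7% of the cells without a ligand (55.4 to 67.7). By plate the shares were 32.1% against 49.1% on vegfc plate 1 and 45.6% against 77.8% on the pdgfra plate, but 38.9% against 20.9% on vegfc plate 2, so the direction did not hold on every plate. In plain fibroblasts alone it was the same on the 3 plates, 35.7% against 73.3%, 39.1% against 75% and 59.5% against 95.5%. The plain fibroblasts without a ligand numbered only 15, 8 and 44 on these plates. The intervals were 23.4 to 49.6 and 44.9 to 92.2 on vegfc plate 1. On vegfc plate 2 they were 25.1 to 54.6 and 34.9 to 96.8. On the pdgfra plate they were 43.3 to 74.4 and 84.5 to 99.4. These intervals cover counting error over the cells of 1 plate, and cells are not replicates, so the difference was not tested. In HM-gated cells the shares were 28.3% of 53 ligand cells and 29% of 93 others, with intervals of 16.8 to 42.3 and 20.1 to 39.4. By plate these were 22.2% against 32.4% on vegfc plate 1, 31.6% against 6.25% on vegfc plate 2 and 31.2% against 54.2% on the pdgfra plate, so the direction differed here as well.

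Fsta was then taken singly, a choice made after its values had been seen. A BMP or GDF ligand was expressed in 30.3% of the fibroblast-gated cells with fsta (23.1 to 38.2) and in 68% of the 460 without it (63.6 to 72.3). On the pdgfra plate, which held all but 27 of the fsta cells, the shares were 28.8% with and 65.6% without fsta. On vegfc plate 1 they were 28.6% of 21 cells and 70.4%, and on vegfc plate 2 they were 66.7% of 6 cells and 68.9%. The lower share of ligand cells among fsta cells was thus seen on 2 plates. On vegfc plate 2 the shares were close, but only 6 cells there had fsta. For single ligands, bmp4 was expressed in 9.87% of fsta cells and 42.2% of others, and BMP7 in 5.26% and 24.8%.

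**Figure D4:**
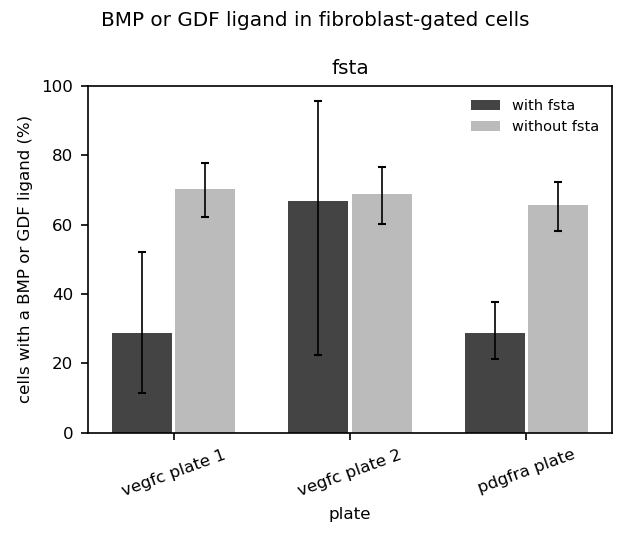
Percentage of fibroblast-gated cells that express a BMP or GDF ligand, by plate, in cells with (dark) and without (light) fsta; error bars are exact 95% intervals that cover counting error only. On the pdgfra plate 28.8% of fsta cells and 65.6% of others express a ligand, while the interval for the 6 fsta cells of vegfc plate 2 spans 22.3 to 95.7%.

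The receptors, Smads, other modulators and target genes of the pathway were taken from lists of 78 names, of which 62 genes had a row and 55 passed the filter. In fibroblast-gated cells 19 of the 55 were called higher (34.5%, with 7.59% of all genes) and 3 lower (5.45%, with 17.8% of all genes), or 6 lower without the pdgfra plate. They included the receptors bmpr1ba (145.5 against 39.5 CPM), bmpr1aa (214.4 against 87.2 CPM) and acvrl1, an activin receptor-like kinase. Of 8 listed TGF-beta targets, 6 were called higher and 1 lower, and of 10 listed BMP targets, 3 were called higher and 0 lower.

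In HM-gated cells 4 of the 55 were called higher (7.27%, with 4.09% of all genes) and 12 lower (21.8%, with 15.3%) against other fibroblast-gated cells, while TMM size factors gave 8 and 10 and leaving out vegfc plate 1 gave 7 higher. Of 10 listed BMP targets 4 were called lower and none higher, and the 4 were homeobox genes of the msx family. Msx1b was at 5.67 CPM in HM-gated and 144.3 CPM in other fibroblast-gated cells, with log2 ratios of -4.99, -4.85 and -3.47 on vegfc plate 1, vegfc plate 2 and the pdgfra plate. Msx3 and msx2b had log2 ratios of -4.76 and -4.71 and msx1a of -2.54. The other BMP targets on the list, id and hey1 genes, were not called. Of the 10 BMP targets, 4 were called lower and 1 higher in tnmd-positive cells, and 3 lower and 1 higher in en1-positive cells. Cycling cells had 3 lower and 0 higher, and plain cells 1 lower and 0 higher. Fin mesenchyme, part of the cells that HM-gated cells were compared with, had 0 lower and 4 higher. BAMBI, a decoy receptor, and SMAD6, an inhibitory Smad, were called lower by -1.30 and -1.45. Of 8 TGF-beta targets 2 were called higher, CCN2, a matricellular protein, at 1726 against 690.2 CPM, and SKI. A BMPR2 copy and a TGFBR2 copy, type II receptors, were called higher by 1.58 and 2.43.

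Leaving out a plate also moved some counts of pathway genes: mesothelium had 10 higher without vegfc plate 1 and 19 lower without vegfc plate 2, cycling fibroblasts 1 higher and 17 lower without the pdgfra plate, epidermal cells 4 higher without vegfc plate 2, myeloid cells 1 higher without vegfc plate 1, and plain fibroblasts 2 higher without vegfc plate 1 and also without vegfc plate 2. With every plate, mesothelium had 6 of the 55 higher (10.9%, with 6.37% of all genes) and 12 lower (21.8%, with 29.7%), or 10 and 9 with TMM size factors. The pathway genes called lower elsewhere were 26 in myogenic (47.3%, with 38% of all genes), 26 in neural (47.3%, with 31%), 28 in endothelial (50.9%, with 40.6%), 26 in epidermal (47.3%, with 35.3%), 33 in tubular epithelium (60%, with 38.1%) and 42 in myeloid cells (76.4%, with 37.4%). Those called higher were 9 in myogenic (16.4%, with 10.8%), 9 in neural (16.4%, with 17%), 8 in endothelial (14.5%, with 10.6%), 2 in epidermal (3.64%, with 11.8%), 2 in tubular epithelium (3.64%, with 14.9%) and 0 in myeloid cells (with 11.4%). Within fibroblasts 7 were called higher in fin mesenchyme (12.7%, with 3.70%), 6 in tnmd-positive (10.9%, with 6.05%), 5 in en1-positive (9.09%, with 6.77%), 0 in cycling (with 5.65%) and 1 in plain cells (1.82%, with 3.05%). Called lower were 7 in fin mesenchyme (12.7%, with 10.7%), 12 in tnmd-positive (21.8%, with 22.7%), 21 in en1-positive (38.2%, with 20.1%), 10 in cycling (18.2%, with 16.6%) and 4 in plain cells (7.27%, with 6.23%).

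The other 18 members stayed below 5% of every kind of 20 cells or more. GREM1 copy 2 was expressed in 21 cells, 7 of them HM-gated. The 12 members that failed the filter were BMP10 copies 1 and 2, GREM1 copy 1, bmp15, bmp8a, fstl4, gdf2, gdf3, gdf5, gdf6b, gdf9 and tgfb5. Of these, bmp8a was expressed in 5 cells, gdf6b in 3 and fstl4 in 2, and no cell reached 20 counts of the other 9.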

How the data were processed

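Single-cell libraries were made with Smart-seq2 from cells sorted into 384-well plates. Per the methods and notes of the submitters, reads were split with bcl2fastq, trimmed with trim galore, aligned to GRCz11 (danRer11) with TopHat2 and Bowtie2, and counted with featureCounts of Subread, and what the methods call doublets were removed with samtools. The deposited values are raw counts of reads per gene, not normalized, and spike-in and reporter rows were left out of totals. Symbols came from a gene name table, which named 28988 of 32057 genes, and 29 were added from the study's source data.

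Counts were summed over the cells of a kind and plate, scaled to CPM, and compared as log2 ratios after adding 1 CPM, with Python 3.11.15, numpy 2.4.6, pandas 2.3.3 and scipy 1.17.1. TMM size factors from edgeR 4.0.16 were an alternative. No doublet caller was run: 27 cells met more than 1 kind other than fibroblast and went to the kind with the larger share of its markers, and fibroblast-gated cells that met several fibroblast kinds went to the first in a fixed order. Members, markers and lists were chosen with earlier results of these data known, and HM markers came from the study's tables on the same cells. The marker lists were kept as planned, but the planned gate (20 counts alone) made 14.4% of all cells myeloid, 86 cells of which (53.8%) also met the fibroblast gate, and 28.7% fin mesenchyme. The bar relative to the 99th percentile was therefore added after the data, members included, had been seen, and this departs from the plan. There were 4 gates tried: 20 counts alone, and with bars of 5%, 10% and 20%. They left 2.43, 7.12, 12.7 and 28% of the cells ungated and made 13.3, 13.9, 13.2 and 10.6% HM-gated. At the bars of 5%, 10% and 20%, 6, 1 and 0 myeloid-gated cells also met the fibroblast gate, and 10% was kept. Results under the other 3 are given at the end. Members at 5% or more of a kind of 20 cells were given with values, and up to 25 with the highest share in full.

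The calling rule was run on simulated counts with known changes, for the HM comparison only. Those counts held no plate differences, free RNA or gating errors, so the simulation could not test the rule against them. Alternatives were the expressing threshold (10 or 50 counts), thinning to 50000 counts, 1 marker more, markers at 10 counts, cells of several kinds left out, each plate left out, the mean of each cell's CPM, 5 CPM added, no filter and TMM. Values of a few genes of the lists are not reported here, although counts over the lists include them.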

Additional observations from a re-analysis of the deposited data

Results flagged for a closer look

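For some members every ratio on the vegfc plates had one sign and the ratio on the pdgfra plate the other; the difference was not tested. Between fibroblast-gated and other gated cells, INHBB copy 1 had log2 ratios of -0.64 and -2.09 on vegfc plates 1 and 2 and 2.11 on the pdgfra plate, and nog2 had 0.10, 0.74 and -1.47. The other gated cells of the pdgfra plate were few, with 11 myeloid and 9 myogenic cells among them. In HM-gated against other fibroblast-gated cells, chrd had -0.35, -2.63 and 3.23 and INHBB copy 2 had 0.61, 0.10 and -0.40. In fin mesenchyme, bmp4 had -1.26, -0.81 and 0.11, nog2 had 1.70, 2.59 and -3.72, and INHBB copy 2 had 0.44, 0.97 and -0.34. Each vegfc plate held 11 fin mesenchyme-gated cells.

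The ungated cells, 12.7% of all cells, entered no comparison. In them 27 members were expressed in more than 3 cells, the limit that a count of 0 allows. Fstl1b was expressed in 75.2%, tgfb3 in 38.3% and bmp2k in 25.5% of the ungated cells. Among antagonists, fsta was expressed in 24.8% and nog2 in 19.1% of them.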

How the results depend on the processing

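Of 3058 values of log2 ratios under the alternatives, 2588 stayed within the spread between plates, 461 went outside it and 9 changed sign or reached 0; 15 values of shares left their intervals, and 48 of 380 values of counts moved by over 1.5 times. The cause of a change was not tested. TMM factors shifted log2 ratios by -0.50 in myeloid, -0.43 in fibroblast-gated, -0.36 in myogenic, -0.27 in epidermal and -0.25 in HM-gated cells.

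The last 9 were, at 20 counts alone as the gate, the one first planned, GDF10 copy 2 in myeloid cells at 0.21, bmp3 and fstl3 in fin mesenchyme at 0.27 and 0.38, bmp6 in epidermal cells at 0.00 and fsta in plain fibroblasts at -0.25. With 1 marker more they were INHBB copy 1 in cycling cells at 0.63 and chrdl2 in en1-positive cells at 1.0, with the 20% bar tgfb2 in cycling cells at 0.00, and with cells of several kinds left out tgfb2 in tnmd-positive cells at 0.95.

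Counts below are members unless called pathway genes. At 20 counts alone the gate gave 6 higher in cycling, 2 in epidermal, 2 in fin mesenchyme and 6 in plain cells, and 3 lower in fin mesenchyme, 17 in myeloid cells and 11 between lines in plain fibroblasts; pathway genes were 4 higher in cycling and 2 in plain cells, and 1 lower in fibroblast-gated, 3 in fin mesenchyme, 19 in myeloid and 8 in plain cells. The 5% bar gave 2 higher in cycling and 2 in en1-positive cells, and 3 pathway genes lower in fin mesenchyme and 3 higher in tnmd-positive cells. The 20% bar gave 7 higher in cycling, 2 in en1-positive, 8 in fin mesenchyme and 8 in plain cells, and 6 lower in cycling cells, 13 in fin mesenchyme and, between lines, 2 in all and 4 in plain fibroblasts; pathway genes were 1 higher in en1-positive, 10 in mesothelium and 1 in tubular cells, and 8 lower in en1-positive cells and 12 in fin mesenchyme. These bars were chosen after seeing the data.

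With 1 marker more there were 6 higher in cycling, 7 in fin mesenchyme, 1 in neural and 6 in plain cells, and 11 lower in en1-positive cells, 14 in fin mesenchyme and 2 between lines in plain fibroblasts; pathway genes were 2 higher in en1-positive, 1 in myeloid and 3 in plain cells, and 12 lower in en1-positive cells and 14 in fin mesenchyme. With 10 counts for markers 2 members and 1 pathway gene were higher in epidermal cells. Without cells of several kinds there were 2 higher in en1-positive cells, 6 lower in cycling cells, 15 in fin mesenchyme and 1 in plain cells, and 3 pathway genes higher in plain cells. TMM gave 4 higher in HM-gated, 2 in cycling and 2 in en1-positive cells; pathway genes were 8 higher in HM-gated, 4 in epidermal, 10 in mesothelium, 1 in myeloid and 4 in tubular cells, and 1 lower in fibroblast-gated cells. The mean of cell CPM gave 1 higher in HM-gated, 2 in en1-positive, 2 in epidermal and 5 in plain cells. Adding 5 CPM gave 4 lower in cycling cells, 2 lower between lines, 3 higher between lines in plain fibroblasts, and pathway genes 2 higher in en1-positive and 1 in epidermal cells. The share of fibroblast-gated ligand cells with an antagonist, 39.8%, was 52.7% at 10 counts and 47.9% after thinning.

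Leaving out each plate gave 35.3 to 43.1% for that share. Members higher were 2 to 5 in HM-gated, 3 to 5 in cycling, 0 to 2 in en1-positive, 1 to 2 in neural and 4 to 7 in plain cells, and 7 to 16 were lower in cycling cells. Pathway genes higher were 5 to 7 in HM-gated, 0 to 1 in cycling and myeloid, 2 to 4 in epidermal, 7 to 10 in mesothelium and 1 to 2 in plain cells, and 12 to 17 were lower in cycling, 2 to 6 in fibroblast-gated and 11 to 19 in mesothelium cells. No value could be had for HM when cells of several kinds were left out, for en1-positive and tnmd-positive cells at 20 counts alone and without the pdgfra plate, for epidermal cells with 1 marker more, at the 20% bar and without vegfc plate 1, and for endothelial and tubular cells without the vegfc plate they rest on. No paired analysis was possible because replicate numbers only name single cells in accession order and no test was run.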
